A study of Homo sapiens with 9 samples.

Results

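Cholesterol synthesis in MCF10A cells was followed here through 8 genes, chosen by symbol: HMGCS1, IDI1, FDFT1, SQLE and LSS, which encode enzymes of the pathway, and SREBF2, SREBF1 and INSIG1, which encode its transcriptional regulators and their retention protein. They are 8 of the 25797 genes in the table. None of the 8 encodes a receptor for cholesterol uptake, so uptake was read from a separate list of genes. MCF10A is a non-tumorigenic human mammary epithelial cell line. The cells of every group lacked endogenous JUN (JUN KO) and carried instead JUN-AID-V5, a JUN protein fused to an auxin-inducible degron, together with TIR1, a plant F-box protein that directs degron-tagged proteins to degradation in cells given indole-3-acetic acid (IAA), an auxin. JUN is a subunit of the transcription factor AP-1. Cells of the DMSO 4sU group received DMSO and then 100 µM 4-thiouridine (4sU) for 1 h. Cells of the IAA 4sU group received 100 µM IAA for 1 h to degrade JUN before the same 1 h of 4sU. The no 4sU control was left unlabelled, and its labels do not say whether it received DMSO. Each group has 3 samples by its labels. The study calls its SLAM-Seq replicates biological. The JUN KO cells were grown from single sorted cells, and the vector that carries JUN-AID-V5 is named for the EF1a promoter. Whether the rescued cells are a pool or a clone was not given in the sources used here.

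SLAM-Seq marks newly made mRNA. Cells build 4sU into new transcripts, alkylation makes the sequencer read the modified base as C in place of T, and the T>C conversion rate is the percentage of T positions in a gene's 3′ interval read as C. Total mRNA is given as CPM, reads of the 3′ interval scaled to library size. The libraries held 18997637 to 24014195 reads. The 3 IAA 4sU columns were identical in all 56868 rows, whereas the DMSO columns differed in 35279 rows for CPM and in 28247 rows for the rate. IAA was therefore treated as 1 library of unknown replicate number, and every IAA value below has no replicate check. JUN was degraded as a protein, which mRNA cannot check. The median rate of the 6805 genes tested was 0.0575, 0.0578 and 0.0599% without 4sU, 0.236, 0.182 and 0.178% with DMSO and 4sU, and 0.218% with IAA and 4sU, with every labelled library above every unlabelled one. All 9 basal mammary epithelial markers had reads (summed CPM 5212 in no 4sU replicate 1 and 2851 to 3649 in the other 6 libraries), while PTPRC, CD3E and VWF, defining markers of leukocytes and endothelium, had 0 reads in every library. CD68, a macrophage marker, did have reads, at 1.68 to 7.93 CPM and up to 159 reads per library, and PECAM1, an endothelial marker, had up to 23.

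Cholesterol is built from acetyl-CoA in the cytosol and the endoplasmic reticulum. Transcription of nearly the whole pathway is set by the SREBP proteins, which SREBF1 and SREBF2 encode. When membrane sterol is low, the escort protein SCAP carries SREBP to the Golgi, where proteases release a fragment that enters the nucleus and binds sterol regulatory elements. When sterol is plentiful, INSIG1 holds the SCAP and SREBP complex in the endoplasmic reticulum. In epithelial cells in culture, the same system answers to serum lipoproteins and to insulin, both present in MCF10A medium, here with 5% horse serum and 10 µg/ml insulin.

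Promoters are shown for 4 of the genes because the pathway is known for its shared promoter elements and because these genes span the patterns described below. HMGCS1 and IDI1 moved together between replicate numbers, INSIG1 had the highest mean labelled rate of the 8, and SREBF2 encodes the main sterol-sensing factor. Each sequence is from RefSeq (GRCh38.p14), 5′ to 3′ on the gene's strand, from 250 bases before to 50 bases after the start site. Capitals mark the CCAAT box (CCAAT, or ATTGG on the other strand), bound by NF-Y, a partner of SREBP, and the core of the sterol regulatory element (TCACNCCAC, either strand).
HMGCS1, chr5:43313363-43313662, minus strand: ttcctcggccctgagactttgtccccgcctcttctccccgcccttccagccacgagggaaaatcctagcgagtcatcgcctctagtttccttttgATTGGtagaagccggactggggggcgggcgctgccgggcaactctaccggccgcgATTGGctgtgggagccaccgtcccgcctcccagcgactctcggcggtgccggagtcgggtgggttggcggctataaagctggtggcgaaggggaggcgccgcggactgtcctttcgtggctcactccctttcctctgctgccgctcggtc
IDI1, chr10:1048837-1049136, minus strand: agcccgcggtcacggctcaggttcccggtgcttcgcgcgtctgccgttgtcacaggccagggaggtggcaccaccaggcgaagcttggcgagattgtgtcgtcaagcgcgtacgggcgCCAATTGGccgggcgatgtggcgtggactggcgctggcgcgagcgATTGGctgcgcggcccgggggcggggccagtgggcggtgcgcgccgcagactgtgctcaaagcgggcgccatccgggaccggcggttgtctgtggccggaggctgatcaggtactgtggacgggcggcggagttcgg
INSIG1, chr7:155297628-155297927, plus strand: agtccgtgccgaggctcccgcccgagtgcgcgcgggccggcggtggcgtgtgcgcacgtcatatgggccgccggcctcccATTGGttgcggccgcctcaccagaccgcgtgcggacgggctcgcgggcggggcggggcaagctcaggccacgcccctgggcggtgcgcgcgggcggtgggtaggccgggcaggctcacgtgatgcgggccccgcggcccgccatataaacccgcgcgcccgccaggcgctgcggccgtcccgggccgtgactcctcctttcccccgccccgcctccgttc
SREBF2, chr22:41832855-41833154, plus strand: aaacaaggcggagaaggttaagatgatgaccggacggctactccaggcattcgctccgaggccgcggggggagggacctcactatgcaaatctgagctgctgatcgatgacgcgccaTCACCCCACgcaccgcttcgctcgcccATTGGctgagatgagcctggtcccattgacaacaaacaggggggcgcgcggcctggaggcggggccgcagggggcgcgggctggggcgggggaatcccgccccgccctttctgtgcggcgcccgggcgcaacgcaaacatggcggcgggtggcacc

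The set of RefSeq promoters used here held 9 promoters for 6 of the 8 genes, and it had no entry for SQLE or FDFT1. A CCAAT box was present in 6 of the 9 promoters (1 of 2 for HMGCS1, 2 of 3 for IDI1, and those of INSIG1, LSS and SREBF2, but not that of SREBF1), against 34.6% of all 35116 promoters of the same length. Some of the 9 windows of HMGCS1 and IDI1 overlap. The letters of the sterol regulatory element core were found in 1 of the 9, that of SREBF2, as TCACCCCAC starting at position -133 from the start site, and in 1.13% of all promoters. The AP-1 motif TGANTCA, the sequence that JUN-containing dimers bind, was in 0 of the 9 promoters and in 7.71% of all. The E-box CACGTG was in 2 of the 9, those of INSIG1 and LSS, and in 7.26% of all, and the GC box GGGCGG was in all 9 and in 45% of all. All motifs were searched on both strands. A match of letters is a description of the window and not evidence of binding.

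In the GRCh37 annotation, HMGCS1 lies at chr5:43287572-43313614 on the minus strand, and its interval of 3664 bases has the length of its annotated 3′ UTR (chr5:43287572-43291235). The INSIG1 interval of 1968 bases has the length of a 3′ UTR on the plus strand (chr7:155099978-155101945, gene chr7:155089486-155101945). The LSS interval of 1983 bases has the length of a 3′ UTR on the minus strand (chr21:47609038-47611020, gene chr21:47608055-47648738). The intervals of IDI1 (1166 bases, gene chr10:1085092-1095059, minus strand), SREBF1 (1276 bases, gene chr17:17713713-17740316, minus strand) and SREBF2 (1651 bases, gene chr22:42229109-42303310, plus strand) match no annotated 3′ UTR in length. HMGCS1, IDI1 and SREBF1 each overlap a gene on the opposite strand there (a long non-coding RNA, IDI2-AS1 and RAI1), and whether the counting used strand was not given in the sources used here.

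The first comparison, of cells with and without the 4sU pulse, asks how much of each mRNA was newly made. The conversion rate rose in 5 of the 7 genes with enough reads to test (INSIG1, IDI1, SREBF2, SQLE and HMGCS1), from 2.94 times the unlabelled mean for HMGCS1 to 6.65 times for INSIG1 (3.46 times without replicate 1), and it did not pass the test in LSS and FDFT1. Among all genes tested, 66.3% passed in the same direction (adjusted p under 0.05, limma across all genes with Benjamini-Hochberg adjustment, at least 200 reads on average), so 5 of 7 is near the background. In the same 5 of 7 genes all 3 labelled libraries stood above all 3 unlabelled ones, as in 72.8% of all genes. Relative to the median gene, which rose by 1.12 on the log2 scale, the change was smaller in HMGCS1 (-0.26 with each library centred on its median rate), SQLE (-0.19), SREBF2 (-0.15), LSS (-0.74) and FDFT1 (-0.89) and larger in INSIG1 (0.82) and IDI1 (0.39), and 0 of the 7 passed the test on the centred scale. When a replicate was left out of both groups, INSIG1 and IDI1 still passed each time. INSIG1 without replicate 1 changed by 1.36, less than IDI1 (1.43). HMGCS1 did not pass without replicate 3 (limma adjusted p = 0.079), and SQLE did not without replicate 1 (limma adjusted p = 0.059). SREBF2 did not pass without replicate 2 or 3 (limma adjusted p = 0.078 and 0.059). Calls over all 6805 genes fell too, from 4509 higher to 3075, 3479 and 3412 without replicates 1, 2 and 3. The size of a log2 change depended on the constant added to the rate: with 0.0001 or 0.002 in place of 0.0005, INSIG1 gave 2.54 or 1.22 and HMGCS1 1.37 or 0.43, and the same 5 genes passed. SREBF1 averaged 115 reads and was not tested.

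**Figure D1:**
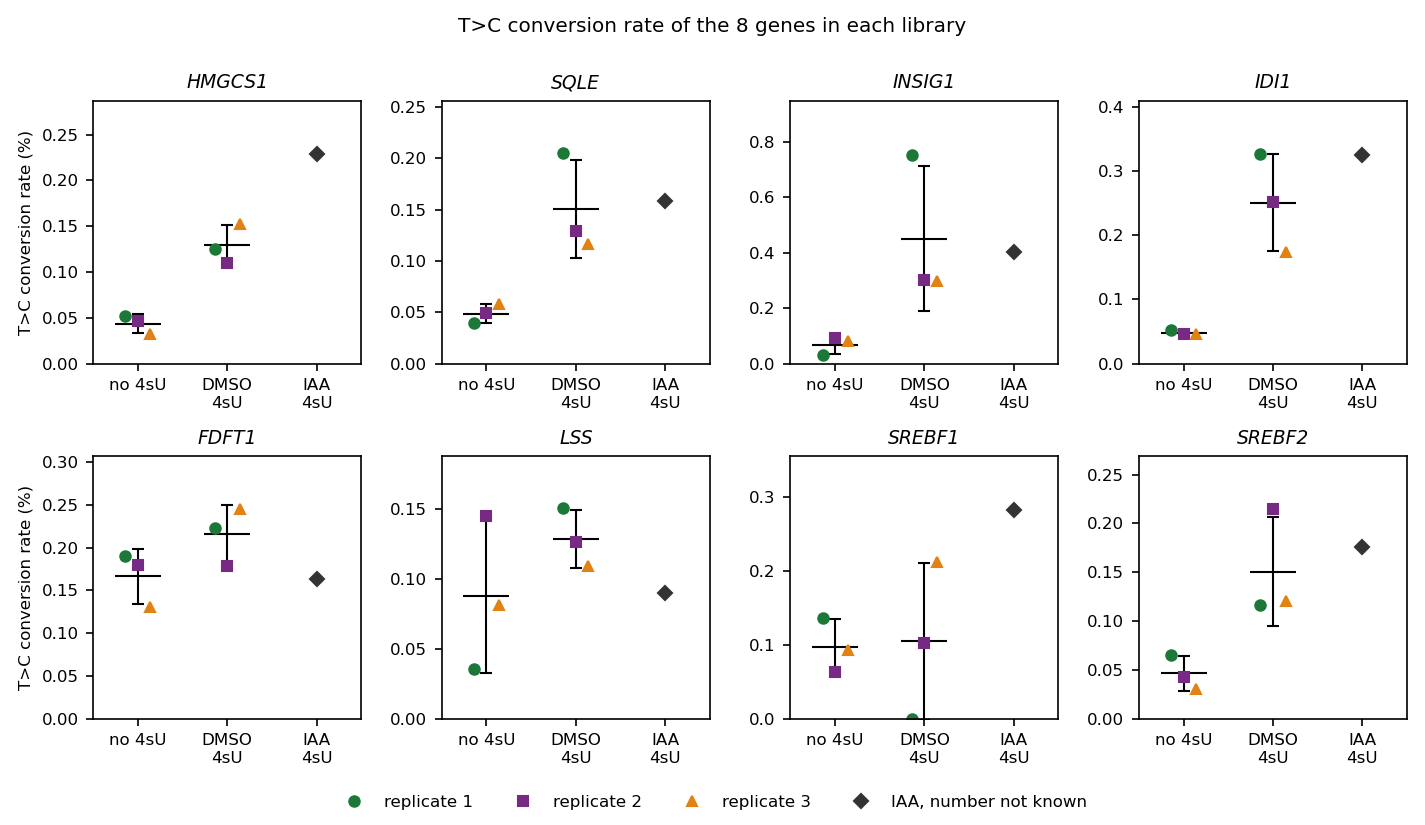
T>C conversion rate in percent (y axis, from 0, a separate scale for each gene) of the 8 genes in the no 4sU, DMSO 4sU and IAA 4sU libraries (x axis); symbols are replicate numbers, the horizontal line and bar are the mean and SD of 3 libraries, and the diamond is the single IAA library. The labelled DMSO libraries lie above every unlabelled library for HMGCS1, SQLE, INSIG1, IDI1 and SREBF2, and the groups overlap for FDFT1, LSS and SREBF1.

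HMGCS1 encodes the cytosolic synthase that makes HMG-CoA, an early intermediate of the pathway. Its rates were 0.0517, 0.0471 and 0.0327% without 4sU and 0.125, 0.109 and 0.153% with DMSO and 4sU. All 3 labelled libraries stood above all 3 unlabelled ones, and the log2 change of (rate + 0.0005, with the rate as a fraction) was 0.93 ± 0.22 (SE, n = 3 per group, limma adjusted p = 0.0083). The mean labelled rate, 0.129 ± 0.0221% (SD, n = 3), exceeded that of only 21.0% of the genes tested.

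IDI1 encodes the isomerase that turns isopentenyl diphosphate into its reactive isomer. Its rates of 0.0519, 0.0469 and 0.0461% without 4sU were the closest to each other of the 8 genes, and labelled rates were 0.327, 0.252 and 0.175%. The groups did not overlap, the rate was 5.20 times the unlabelled mean, and the log2 change was 1.58 ± 0.27 (SE, n = 3 per group, limma adjusted p = 0.0021). IDI1 was at percentile 61.9 of the labelled rates of all genes tested.

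SQLE encodes squalene epoxidase, which oxidises squalene before the rings are closed. The unlabelled libraries gave 0.0393, 0.0491 and 0.0578%, and the labelled ones 0.205, 0.130 and 0.116%. Replicate 1 was the highest with 4sU and the lowest without it, and the groups stood apart. The log2 change was 1.00 ± 0.25 (SE, n = 3 per group, limma adjusted p = 0.0096).

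FDFT1 encodes squalene synthase, the first enzyme committed to sterols. Without 4sU its rates were already 0.190, 0.179 and 0.130%, higher than those of 97.8% of the genes tested, and with 4sU they were 0.223, 0.179 and 0.246%. The groups overlapped, and the log2 change of 0.30 ± 0.27 did not pass the test (SE, n = 3 per group, limma adjusted p = 0.33). The excess of the labelled over the unlabelled mean was 0.0493 percentage points, against 0.0852 for HMGCS1.

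LSS encodes lanosterol synthase, which closes the sterol rings. Its rates were 0.0359, 0.145 and 0.0816% without 4sU and 0.151, 0.126 and 0.110% with it, from only 143 to 362 reads per library. The unlabelled libraries spread more widely than the labelled ones and overlapped them, and the log2 change was 0.45 ± 0.33 (SE, n = 3 per group, limma adjusted p = 0.24).

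SREBF2 encodes SREBP2, the factor most closely tied to sterol synthesis. Rates of 0.0655, 0.0427 and 0.0309% without 4sU compared with 0.117, 0.215 and 0.120% with it. Every labelled library was above every unlabelled one, and the log2 change was 1.04 ± 0.27 (SE, n = 3 per group, limma adjusted p = 0.012). SREBF1 encodes SREBP1, which favours fatty acid synthesis. With 87 to 151 reads per library, its rates were 0.136, 0.0625 and 0.0924% without 4sU and 0, 0.103 and 0.212% with it, a spread as wide as the values themselves.

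INSIG1 had the highest mean labelled rate of the 8. Its unlabelled rates were 0.0300, 0.0923 and 0.0812%, and its labelled rates were 0.753, 0.301 and 0.298%. The groups did not overlap, and replicate 1 was the highest with 4sU and the lowest without it. The labelled rate was 25.1 times the unlabelled one in replicate 1, 3.26 times in replicate 2 and 3.68 times in replicate 3. The log2 change was 2.01 ± 0.42 (SE, n = 3 per group, limma adjusted p = 0.0048), and 1.36 without replicate 1 (limma adjusted p = 0.020). The mean labelled rate was 0.451 ± 0.262% (SD, n = 3), at percentile 85.0 of all genes tested. The lowest labelled INSIG1 library (0.298%) was above the highest of HMGCS1, SQLE, FDFT1, LSS, SREBF1 and SREBF2, while IDI1 reached 0.327%. In order of the mean labelled rate, INSIG1 was followed by IDI1 (0.251%), FDFT1 (0.216%), SREBF2 (0.151%), SQLE (0.150%), HMGCS1 (0.129%), LSS (0.129%) and SREBF1 (0.105%), and the 3 libraries of each gene overlapped in range with those of its neighbour in this order.

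**Figure D2:**
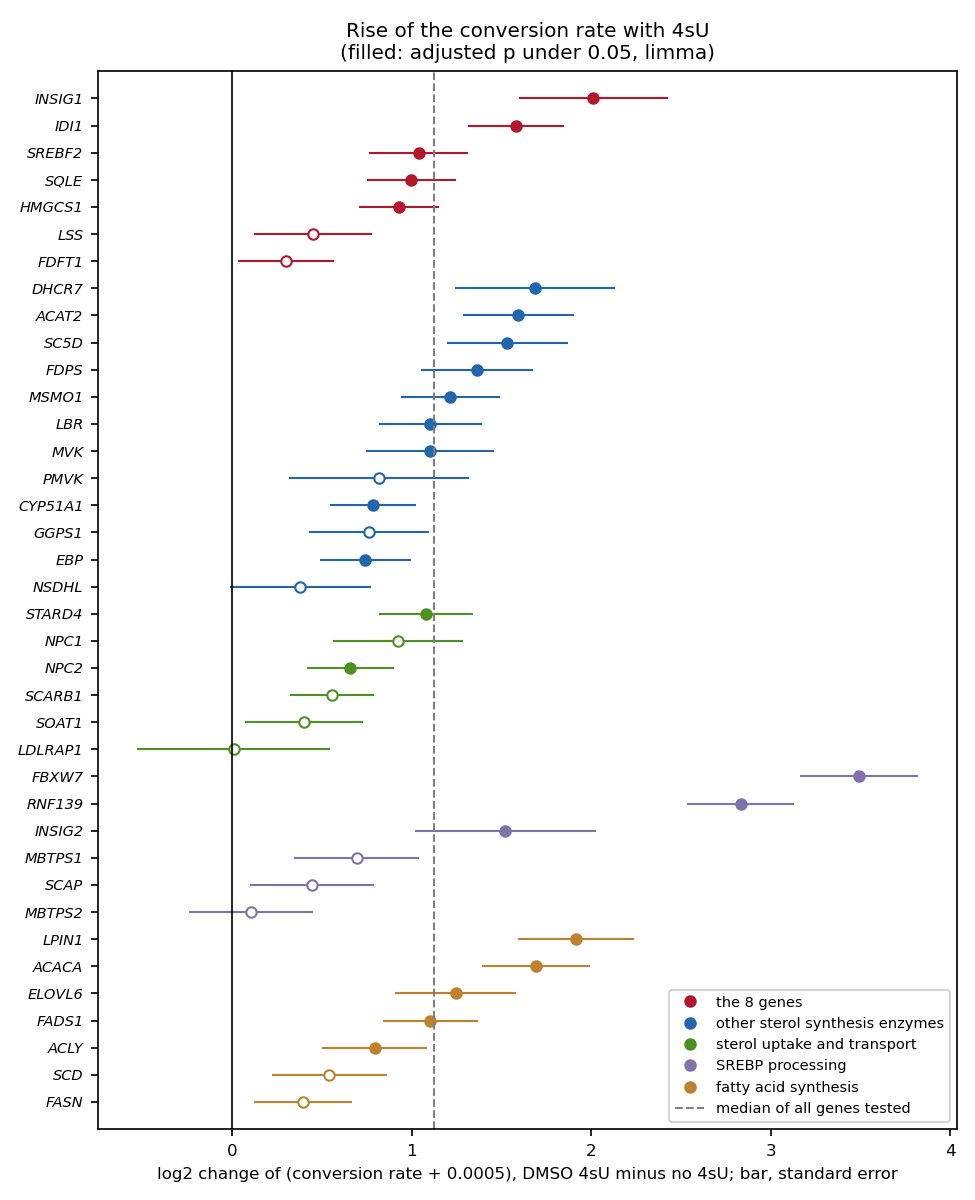
Log2 change of (conversion rate + 0.0005), DMSO 4sU minus no 4sU (x axis; point, estimate; bar, SE; filled, limma adjusted p under 0.05), for the 7 genes tested of the 8 and for genes of 4 related lists (y axis, coloured by list). INSIG1 (2.01) and IDI1 (1.58) lie to the right of the dashed median of all genes (1.12), and the other 5 lie to its left. Without replicate 1 INSIG1 is at 1.36. With each library centred on its median rate, HMGCS1 (-0.26), SQLE (-0.19), SREBF2 (-0.15), LSS (-0.74) and FDFT1 (-0.89) turn negative.

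Other genes of the pathway were taken from lists chosen by function. Of all 6805 genes tested, 66.3% rose, with a median log2 change of 1.12, and each list is to be read against that share. Of 17 further sterol synthesis enzymes, 14 could be tested and 11 rose, with a median log2 change of 1.08. MSMO1, a sterol methyl oxidase, and CYP51A1, the lanosterol demethylase, had the most reads and log2 changes of 1.22 and 0.78 (limma adjusted p = 0.0068 and 0.022). DHCR7, which makes cholesterol from its direct precursor, and ACAT2, which condenses acetyl-CoA, had the largest changes of the list, 1.69 and 1.59. For uptake and transport, 7 of 12 genes could be tested and 3 rose, among them STARD4, a sterol carrier (log2 change 1.08), and NPC2, which hands over cholesterol in lysosomes (0.66).

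The 7 genes of SREBP processing were all tested, and 4 rose, against 66.3% of all genes tested. FBXW7, a ubiquitin ligase subunit that targets nuclear SREBP among other proteins, had a log2 change of 3.49 ± 0.33, and RNF139, a sterol-responsive ligase of the endoplasmic reticulum, one of 2.83 ± 0.30 (SE, n = 3 per group), both above INSIG1. MBTPS1, the protease that makes the first cut in SREBP and the gene of the list with the most reads, had a log2 change of 0.70 (limma adjusted p = 0.11). Among 9 fatty acid synthesis genes, 7 were tested and 5 rose (background 66.3%), led by LPIN1 (1.92) and ACACA (1.69). SCD, the desaturase with the most reads of the list, had a log2 change of 0.54 (limma adjusted p = 0.16).

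Total mRNA was compared to see whether the relative amount of these mRNAs differed with the pulse. The labels of the control do not say whether it received DMSO. Of the 8 genes, 0 fell and 0 rose with 4sU, where 1.65% and 0% of 11075 genes did (limma on log2(CPM + 1), adjusted p under 0.05). The log2 changes ran from -0.22 for INSIG1 to 0.18 for SREBF2 with a median of 0.08, against 0.04 for all genes, and adjusted p-values ran from 0.76 to 0.96. At an unadjusted p under 0.05 the count was 0 of 8 as well, against 294 genes higher and 837 lower in the whole table, and edgeR and DESeq2 on the recovered reads also called 0 of the 8. In limma, no gene of the 4 related lists passed. CPM is scaled to library size, so a change in cell number or in total RNA would not show in these values. In bulk samples such as these, fewer cells that express a gene and less of its mRNA per cell cannot be told apart.

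**Figure D3:**
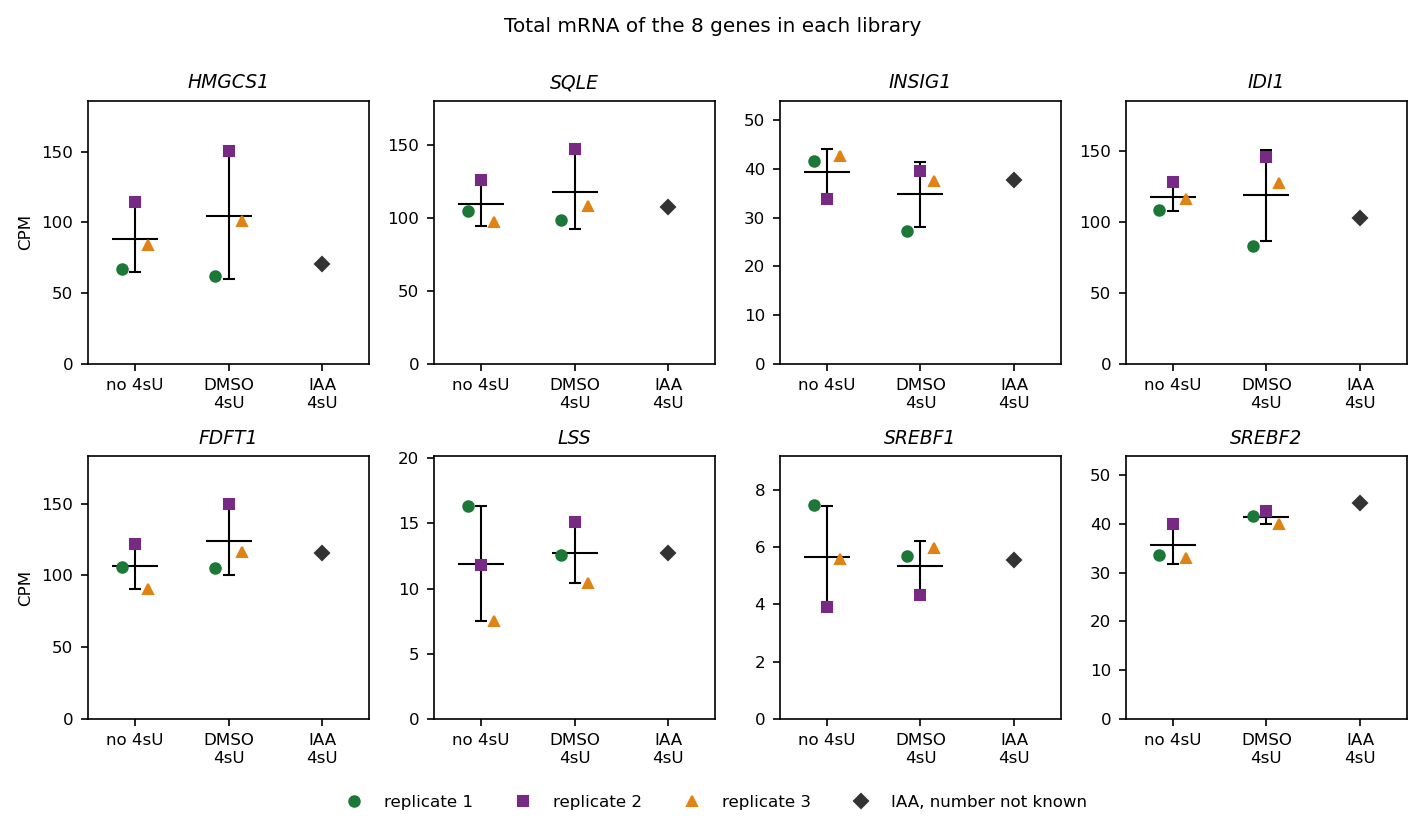
Total mRNA in CPM (y axis, from 0, a separate scale for each gene) of the 8 genes in each library by group (x axis); symbols are replicate numbers, the horizontal line and bar are the mean and SD of 3 libraries, and the diamond is the single IAA library. Replicate 2 is the highest of its group with and without 4sU for HMGCS1, SQLE, IDI1, FDFT1 and SREBF2, and the IAA library lies between the DMSO libraries for every gene but SREBF2, where it is at 44.3 CPM.

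The spread within the groups was structured for several of these genes. Samples that share a replicate number deviated together from their group means in total mRNA across genes. The labels do not say whether these samples shared a culture, a preparation or both, and this was not tested. Below, culture stands only for the samples that share a replicate number. HMGCS1, SQLE, IDI1, FDFT1 and SREBF2 were highest in replicate 2 both with and without 4sU, 5 of 8 genes against 13.7% of all. HMGCS1, SQLE and IDI1 were also lowest in replicate 1 of log2(CPM + 1) after TMM scaling of the library sizes, 3 of 8 against 8.38% of all genes (in the deposited CPM, SQLE without 4sU was lowest in replicate 3).

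HMGCS1 had CPM values of 66.9, 114 and 84.3 without 4sU and 61.8, 150 and 101 with DMSO and 4sU for replicates 1, 2 and 3. The order of the cultures was the same in both groups, and replicate 2 was 1.71 times replicate 1 without 4sU and 2.43 times with it. The mean difference of 1.06 on the log2 scale was higher than in 99.6% of all genes.

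IDI1 gave 108, 128 and 116 CPM without 4sU and 82.9, 146 and 127 with it, again in the same order of cultures. SQLE gave 105, 126 and 97.0 CPM without 4sU and 98.7, 147 and 108 with it. FDFT1 gave 106, 122 and 90.8 CPM without 4sU and 105, 150 and 116 with it. In SQLE and FDFT1 replicate 2 stood above replicates 1 and 3, which lay close together with 4sU.

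INSIG1, LSS and SREBF1 did not share this order. INSIG1 had 41.6, 33.9 and 42.6 CPM without 4sU and 27.2, 39.6 and 37.5 with it, so that replicate 2 was lowest in the first group and highest in the second. LSS had 16.4, 11.8 and 7.53 CPM and then 12.6, 15.1 and 10.5. SREBF1 was low throughout, at 7.46, 3.89 and 5.58 CPM and then 5.68, 4.33 and 5.97, with replicate 2 the lowest in both groups. SREBF2 was the steadiest with 4sU, at 41.7, 42.6 and 39.9 CPM after 33.6, 40.0 and 33.1 without it, highest in replicate 2 but lowest in replicate 3 in both groups.

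By the F test of replicate number, 0 of the 8 genes and 0% of 11075 passed an adjusted p of 0.05 in limma, and edgeR also called 0 genes. At an unadjusted p under 0.05, 3 of 8 passed (HMGCS1, IDI1 and SQLE), against 18.7% of all genes, and 2040 genes did in edgeR. The limma adjusted p was 0.16 for HMGCS1 and 0.22 for IDI1 and SQLE. The outcome depended on the replicate numbers compared. Without replicate 1, HMGCS1, SQLE and FDFT1 passed (limma adjusted p = 0.0050, 0.021 and 0.028) against 1.75% of all genes. Few libraries are left there to estimate each gene's own variance, so these p-values rest largely on variance pooled over genes. With all replicates FDFT1 had a limma adjusted p of 0.27. Without replicate 2 or replicate 3 the count was 0 again (0% and 0.163% of all genes).

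**Figure D4:**
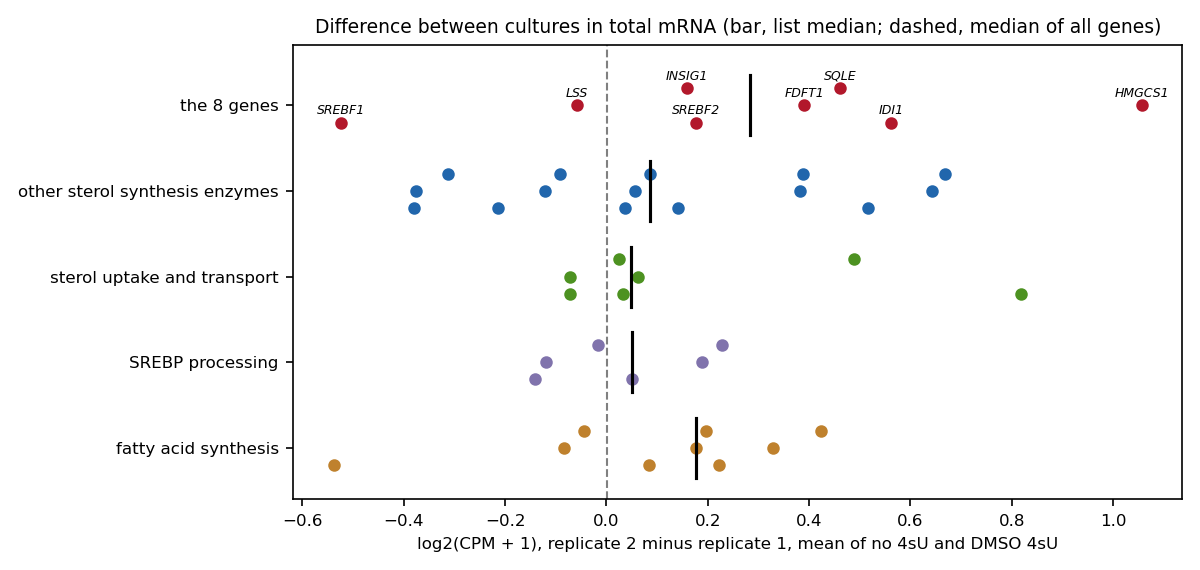
Difference in log2(CPM + 1) between replicate 2 and replicate 1, averaged over the no 4sU and DMSO 4sU libraries (x axis), for each of the 8 genes and for genes of 4 related lists (y axis; vertical bar, median of the whole list, genes not plotted included; dashed line, median of all genes). HMGCS1 lies at 1.06 and SREBF1 at -0.52, and the median of the 8 genes is 0.28.

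The median difference between replicates 2 and 1 was 0.28 for the 8 genes and 0.0018 for all genes. Among the 17 other sterol synthesis enzymes it was 0.09. Of these, 5 were highest in replicate 2 and lowest in replicate 1 in both groups, against 8.38% of all genes. MSMO1 and CYP51A1 differed by 0.39 and 0.52, and ACAT2 by 0.67. At an unadjusted p under 0.05, 7 of the 17 passed the limma F test, against 18.7% of all genes, and 0 did after adjustment. For uptake and transport, STARD4 differed by 0.82 and VLDLR by 0.49. VLDLR averaged only 26 reads, against 469 for STARD4. Neither passed the F test after adjustment (limma adjusted p = 0.16 for STARD4 and 0.39 for VLDLR). SREBP processing had a median of 0.05, and fatty acid synthesis one of 0.18, with ACSS2 at -0.54 and FASN at 0.42.

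Cell type markers were compared over the same cultures. CDH1, the epithelial cadherin, named after its values were seen, had a log2 difference of 1.10 between replicates 2 and 1 (limma adjusted p = 0.16 by the F test), while the median of the 9 basal epithelial markers was -0.02. CD68, the only leukocyte marker with more than 3 reads, was at 7.27, 2.23 and 1.68 CPM without 4sU and 5.59, 3.50 and 2.34 with it, highest in replicate 1. Fibroblast markers summed to 9.05 to 14.5 CPM over all libraries, and endothelial markers to 0.179 to 1.08. The part of these differences in the culture order of HMGCS1, IDI1 and SQLE was not tested.

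Genes whose total mRNA followed the 8 most closely were sought over all 7 distinct libraries. The mean centred log2(CPM + 1) of the 7 of the 8 genes with at least 200 reads on average ran from -0.23 in DMSO replicate 1 to 0.33 in DMSO replicate 2, with the IAA library at -0.12. Among 6814 genes, the 5 other genes with the highest Pearson correlation with that mean were GABARAPL2 (0.989), HADHB (0.984), YWHAQ (0.980), MLLT11 (0.977) and CYP51A1 (0.975). SCD, outside that rule and named after its value was seen, came next at 0.975. The 7 genes entered the mean themselves, and of these SQLE (0.970), HMGCS1 (0.947), FDFT1 (0.912) and IDI1 (0.879) were close to it and INSIG1 (0.351), SREBF2 (0.315) and LSS (0.278) were not. Between single genes, HMGCS1 correlated with IDI1 at 0.926 and with SQLE at 0.923, and SREBF1 correlated with HMGCS1 at -0.69. All these correlations rest on the same 7 libraries and largely on 3 replicate numbers.

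The last comparison set the IAA library beside the DMSO libraries and asks how new and total mRNA stood after JUN degradation before the pulse. The conversion rate, centred on the median of each library, was above all 3 DMSO libraries in HMGCS1 and IDI1 and below all 3 in FDFT1 and LSS, and none of the 7 genes with enough reads lay a log2 unit or more from the DMSO mean (background 4.19% higher and 4.82% lower). With 1 library there is no test. Across all 6820 genes, 23.7% were above and 25.9% below the 3 DMSO libraries, and 49.6% were outside their range in either direction, so 2 and 2 of 7 are near the background.

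The HMGCS1 rate was 0.229% with IAA, against 0.125, 0.109 and 0.153% with DMSO. After centring each library on its median, this was 0.53 above the DMSO mean on the log2 scale and 0.22 above the nearest library, while DMSO replicate 3 stood 0.46 above the other DMSO libraries. IDI1 was at 0.326% with IAA, against 0.327, 0.252 and 0.175% with DMSO. The deposited IDI1 rate was thus just below DMSO replicate 1, and only after centring was it above, by 0.08, with a difference of 0.23 from the mean. FDFT1 was at 0.164%, lower than any labelled DMSO library by at least 0.26 on the centred log2 scale, and within its unlabelled range. LSS was at 0.0904%, from 255 reads, and 0.42 or more below every DMSO library. That too was within its unlabelled range, 0.0359 to 0.145%. The rise of the LSS rate with 4sU had not passed the test (limma adjusted p = 0.24).

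SQLE, SREBF2 and INSIG1 lay inside the DMSO range. SQLE was at 0.159%, between DMSO replicates 1 and 2. SREBF2 was at 0.176%, and INSIG1 at 0.403%, 0.15 below the DMSO mean on the centred log2 scale, while DMSO replicate 1 alone stood 0.89 above the other DMSO libraries. The median over the 7 genes was -0.035, and 0.048 without DMSO replicate 1, and each DMSO library set against the other DMSO libraries gave medians of -0.06, -0.06 and -0.12. SREBF1, with 111 reads, was at 0.281% and was not included.

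**Figure D5:**
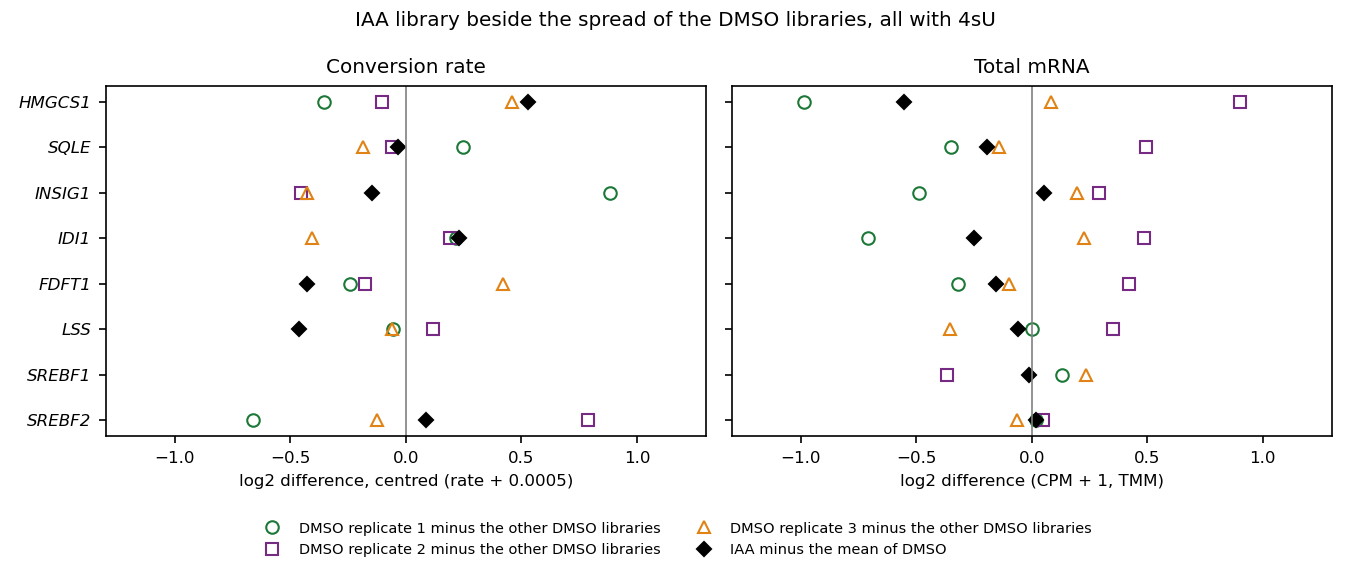
Log2 difference of the IAA 4sU library from the DMSO mean (black diamond) and of each DMSO library from the other DMSO libraries (open symbols, by replicate) for each gene (y axis), in conversion rate centred on the library median (left) and in total mRNA (right). For HMGCS1 total mRNA the IAA value of -0.55 lies between DMSO replicates 1 (-0.99) and 2 (0.90), and SREBF1 had too few reads for the rate.

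Total mRNA gave 0 of 8 genes outside the DMSO range on the TMM scale, where 41.4% of 11015 genes were outside, and 0 past a log2 unit (background 0.118% higher and 0.0272% lower). HMGCS1 was at 70.3 CPM with IAA, against 61.8, 150 and 101 with DMSO, a log2 difference of -0.55 from the mean that was lower than in all but 1.03% of genes. Its log2 difference was 0.10 from DMSO replicate 1, -1.16 from replicate 2 and -0.61 from replicate 3, so even the sign depended on the culture taken for comparison. IDI1 was at 102 CPM (log2 difference -0.25), SQLE at 107 (-0.19) and FDFT1 at 116 (-0.16). INSIG1 was at 37.7 CPM (0.05), LSS at 12.7 (-0.06) and SREBF1 at 5.53 (-0.01). SREBF2 was at 44.3 CPM, above all 3 DMSO libraries as deposited and between them after TMM scaling (0.02).

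For 7 of the 8 genes, the DMSO library nearest to the IAA library in total mRNA was replicate 1, and for 1 it was replicate 3. The median absolute log2 difference was 0.08 from DMSO replicate 1, 0.37 from replicate 2 and 0.13 from replicate 3. The same held for 52.1% of all genes, with medians of 0.13, 0.27 and 0.21. The labels do not tell which replicate the single IAA library is. An effect of IAA on total mRNA and a difference between replicate numbers therefore cannot be told apart here. In the conversion rate, 4 of the 7 genes were nearest to replicate 3, 2 to replicate 1 and 1 to replicate 2.

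Among the related lists, 5 of the 14 sterol synthesis enzymes measured had a centred conversion rate above all DMSO libraries, and 2 below. Their median log2 difference was 0.27. Across all 6820 genes, 23.7% were above and 25.9% below, with a median of -0.007. With 1 IAA library there is no test of these counts. NSDHL, which removes sterol methyl groups, and MSMO1 had the largest differences, 0.90 and 0.65, both above the DMSO range, and CYP51A1 lay inside it. The NSDHL rate was 0.288% with IAA and 0.236, 0.0729 and 0.0822% with DMSO. Its rise with 4sU had not passed the test (log2 change 0.38, limma adjusted p = 0.40). For MSMO1 the rate was 0.400% with IAA and 0.317, 0.178 and 0.169% with DMSO. In the uptake list NPC1, which exports lysosomal cholesterol, differed by 0.63 and STARD4 by -0.55. Of the 7 SREBP processing genes, 0 were above and 3 below (background 23.7% and 25.9%), among them MBTPS1 (-0.70). In total mRNA, 2 of 17 sterol enzymes were above and 5 below the DMSO range (background 21% and 20.5%), with a median of -0.14, and in the uptake list STARD4 was lowest at -0.81 (13.4 CPM against 14.6, 31.0 and 26.6).

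The rate multiplied by CPM gives the amount of converted signal, T>C background included, rather than its share of each mRNA. For HMGCS1 this product, with the rate as a fraction, was 0.161 with IAA, inside the DMSO values of 0.0771, 0.165 and 0.155, although its rate was above all of them. For IDI1 it was 0.333 against 0.271, 0.367 and 0.222, and for INSIG1 0.152 against 0.205, 0.119 and 0.112, both inside the range. SQLE at 0.170 lay inside 0.126 to 0.202, and FDFT1 at 0.190 lay below 0.235, 0.268 and 0.285. Without 4sU the FDFT1 product was already 0.202, 0.218 and 0.118, so its IAA value lay within the unlabelled range. SREBF2 was at 0.0780, inside 0.0480 to 0.0914.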

How the data were processed

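The authors processed the SLAM-Seq reads of QuantSeq 3′ libraries with a Nextflow SLAM-Seq pipeline, and the submitters' processing notes name hg19. Tool versions, use of strand and the number of T positions covered per gene were not given in the sources used here, so no counting interval could be given for a rate. The deposited conversion rates are fractions of T positions read as C, without background subtraction. The deposited CPM signal is reads scaled to library size, and 100% of non-zero values came out as whole reads (tolerance 0.01 reads). RefSeq identifiers matched 97.7% of 56868 rows to gene symbols. Per-sample columns not used numbered 0.

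For each gene the interval with the most reads was used. Averaging a gene's intervals had been planned, and was replaced after the data were seen because INSIG1 has a further interval of 20 bases with almost no reads. Rates were tested with limma 3.58.1 (R 4.3.3; trended, robust) on log2(rate + 0.0005) for genes averaging 200 or more reads whose rate was not 0 in 3 or more of 6 libraries, and total mRNA on log2(CPM + 1) with TMM library sizes for genes with CPM above 1 in at least 3 of 6 libraries, with Benjamini-Hochberg adjusted p under 0.05. The IAA library was compared by differences alone. For it, rates needed 200 reads on average over the 4 labelled libraries and a value above 0 in at least 2, and a gene counted as moved when it lay outside the DMSO range and at least 1 log2 unit from the DMSO mean. The recovered reads were also tested with edgeR 4.0.16 and DESeq2 1.42.0 as alternatives. Replicate numbers paired the samples in total mRNA (correlations of the deviations of same-numbered samples from their group means of 0.393, 0.316 and 0.377 for replicates 1, 2 and 3; 11075 genes) and not in the rate (-0.018, -0.016 and 0.00053). The scripts were tested on simulated data. Named were all 8 genes and, from each related list, the 2 genes with the most reads and the 2 with the largest absolute log2 change in the comparison at hand, with others said to be chosen after their values were seen. The 8 genes and the lists were chosen with earlier results of these data known. Some genes of the related lists are not reported here by name and are not plotted, and they remain in the counts and medians.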

Additional observations from a re-analysis of the deposited data

How the results depend on the processing

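The count of 5 genes with a higher conversion rate with 4sU was 0 when each library was centred on its median rate, where HMGCS1 (-0.26), SQLE (-0.19) and SREBF2 (-0.15) turned negative, and 3 to 4 when a replicate was left out of both groups (3 without replicate 3, where HMGCS1 and SREBF2 had adjusted p of 0.079 and 0.059; SQLE had 0.059 without replicate 1 and SREBF2 0.078 without replicate 2, limma). Centring reduced the calls over all genes from 4509 to 695 higher and raised those lower from 3 to 238. LSS (-0.74) and FDFT1 (-0.89), not among the 5, were negative there as well. Leaving out replicates 1, 2 and 3 in turn also reduced the calls higher over all 6805 genes, to 3075, 3479 and 3412. The genes called in total mRNA with 4sU stayed at 0 of 8 in every alternative, while the count over all genes moved from 183 to 388 with DESeq2, 478 without replicate 1, 26 without replicate 2 and 29 without replicate 3. The replicate block changed no call of the 8 genes (5 for the rate, 0 for total mRNA, with 208 genes called in all). The genes whose total mRNA differed between replicate numbers were 0 to 3 when a replicate was left out, 3 without replicate 1. Over all 11075 genes, 194, 0 and 18 were called without replicates 1, 2 and 3. The median centred rate difference between IAA and DMSO, -0.035, was 0.086 without centring, -0.073 for the rate multiplied by CPM, and -0.097 to 0.048 when a DMSO library was left out (0.048 without DMSO replicate 1). The median difference in total mRNA, -0.11, was -0.19 to -0.02 when a DMSO library was left out (-0.02 without DMSO replicate 2, -0.19 without DMSO replicate 1) and -0.03 without TMM. Averaging or summing a gene's intervals, added after the data were seen, changed none of the counts for the 8 genes. Averaging moved the INSIG1 rate change from 2.01, or 1.36 without replicate 1, to 3.29 (limma adjusted p = 0.027). It took in the INSIG1 interval of 20 bases, whose rate was 20% in DMSO replicate 3, from 2 reads, and 0 elsewhere. With 0.0001 or 0.002 added to the rate in place of 0.0005, INSIG1 changed by 2.54 or 1.22, IDI1 by 2.12 or 0.85 and HMGCS1 by 1.37 or 0.43, and the 5 calls were the same. Centring shifts the change of every gene by the same amount, averaging took in the interval of 20 bases, and leaving out a replicate leaves fewer samples. Beyond these steps the cause of the shifts was not tested. SREBF1 and LSS, with 87 to 362 reads per library, give the least precise rates.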
